A study of Homo sapiens with 9 samples.

Results

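The genes described here are 10 regulators of the G1 phase of the cell cycle, 3 D-type cyclins (CCND1, CCND2 and CCND3), 2 E-type cyclins (CCNE1 and CCNE2), 3 cyclin-dependent kinases (CDK2, CDK4 and CDK6) and 2 CDK inhibitors (CDKN1B and CDKN2B). They were taken by symbol from a list of 58920 genes counted in every library, and all 10 were among the 19102 genes tested. LIM1215 is a colorectal cancer cell line without RAS mutation that is sensitive to cetuximab, an antibody against the EGF receptor. LIM1215-R1 and LIM1215-R2 (labelled Resistant_1 and Resistant_2) are populations of mixed cells, not clones, which were selected side by side by months of exposure to rising cetuximab concentrations. Subpopulations of both resistant lines carry activating HRAS mutations, as the study describes them. LIM1215-parental cells (labelled Parental) were passaged over the same time without the antibody. RNA came from cells in basal culture without drug treatment, in RPMI medium with fetal bovine serum, and 3 libraries per line were sequenced, which gave 9 libraries with 13737416 to 18725014 counts each. The study calls its 3 replicates per line technical, so the p-values measure the spread between libraries, and a difference between lines cannot be told apart from a difference between the cultures harvested.

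D-type cyclins are made in response to growth factors and bind CDK4 or CDK6. These kinases begin the phosphorylation of the retinoblastoma protein RB1, which then releases E2F transcription factors. E2F factors switch on the E-type cyclins and the genes of DNA replication, and cyclin E with CDK2 completes the phosphorylation of RB1 at the entry into S phase. CDKN2B (p15INK4B) binds CDK4 and CDK6 and keeps D-type cyclins away from them, whereas CDKN1B (p27KIP1) binds whole cyclin-CDK complexes and blocks cyclin E-CDK2. In colorectal cells, CCND1 is a well-known output of the EGF receptor and MAPK pathway.

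The genome holds these genes at separate places on GRCh38, which are given here for all but CCNE2. CCND1 lies on chromosome 11 (69641156-69654474), CCND3 on chromosome 6 (41934933-42050035), CDK6 on chromosome 7 (92604921-92836573), CDKN2B on chromosome 9 (22002903-22009313) and CCNE1 on chromosome 19 (29811991-29824312). Chromosome 12 carries CCND2 (4273762-4305353), CDKN1B (12717368-12722369), CDK2 (55966830-55972789) and CDK4 (57747727-57752310).

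The RefSeq promoter table (GRCh38.p14) held start sites of 6 of the 10 genes, 9 start sites in all, and had no entry for CCND1, CCND2, CDK2 or CCNE2. The 250 bases before the start are shown 5′ to 3′ for the paralogs CDK4 and CDK6, of which CDK6 differed between the lines and CDK4 was not called, and for the inhibitor CDKN2B. All 3 genes lie on the minus strand. Capitals mark the E-box CACGTG in the CDK4 window (chr12:57752311-57752560), and the GC box (GGGCGG, or CCGCCC on the other strand) in the CDK6 window (chr7:92836574-92836823) and the CDKN2B window (chr9:22009306-22009555).
CDK4: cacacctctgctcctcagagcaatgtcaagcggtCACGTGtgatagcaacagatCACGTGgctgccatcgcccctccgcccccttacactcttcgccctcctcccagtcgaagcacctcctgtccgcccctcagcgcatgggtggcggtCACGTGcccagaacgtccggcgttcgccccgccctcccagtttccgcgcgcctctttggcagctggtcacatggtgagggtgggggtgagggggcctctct
CDK6: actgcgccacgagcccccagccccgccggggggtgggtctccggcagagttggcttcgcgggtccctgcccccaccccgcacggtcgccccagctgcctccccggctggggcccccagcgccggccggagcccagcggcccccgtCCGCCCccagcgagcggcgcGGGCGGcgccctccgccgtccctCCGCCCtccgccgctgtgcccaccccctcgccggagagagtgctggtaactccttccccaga
CDKN2B: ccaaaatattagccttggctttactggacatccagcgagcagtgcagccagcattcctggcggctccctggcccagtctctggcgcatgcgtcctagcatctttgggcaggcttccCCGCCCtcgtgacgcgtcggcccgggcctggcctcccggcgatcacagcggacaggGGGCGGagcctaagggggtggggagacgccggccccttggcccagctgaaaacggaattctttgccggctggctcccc

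The CDK4 window held 3 E-boxes, the sequence that MYC binds with its partner MAX. Of 35116 promoters of the same length, 6.34% held at least 1 E-box and 0.0797% held 3 or more. The CDK4 window also held 3 GC boxes, which are left in lower case. GC boxes, bound by SP1, were common, with at least 1 in 42.6% and 3 or more in 13.9% of all promoters. They occurred 3 times in the printed CDK6 window and 2 times in that of CDKN2B. The window of the other CDK6 start site (chr7:92833960-92834209), which is not printed, held none. The E2F motif (TTTCCCGC, TTTCGCGC, TTTGCCGC or TTTGGCGC), the AP-1 motif (TGAGTCA) and the TCF/LEF motif (CTTTGAT), searched on both strands, did not occur in any of the 9 windows, and were found in 2.79%, 4.2% and 2.26% of all promoters. These matches describe letters in a window of 250 bases and not binding.

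The level of each gene is given as CPM, the counts of the gene relative to all counts of its library and rescaled to the usual common total, scaled between libraries with the TMM method. A gene was called higher or lower at a Benjamini-Hochberg adjusted p of at most 0.01 in edgeR's quasi-likelihood test over all 19102 genes, and called a DEG if its absolute log2 fold change was also at least 1.5. Against LIM1215-parental, 4 of the 10 genes were higher in LIM1215-R1 (CCND1, CCND2, CCND3 and CDKN2B) and 2 were lower (CDK6 and CDK2), where 14.0% of all genes tested were higher and 13.4% lower. In LIM1215-R2, 2 were higher (CCND1 and CCNE2) and 2 were lower (CDK6 and CCND2), where 12.3% of all genes were higher and 11.6% lower. DEGs made up 2 of the 10 in LIM1215-R1 (CDK6 and CDKN2B) and 1 in LIM1215-R2 (CDK6), and 5.14% and 4.82% of all genes. Both comparisons use the same 3 parental libraries.

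Changes of the 10 genes were mostly small. Their median absolute log2 fold change was 0.25 in LIM1215-R1 and 0.22 in LIM1215-R2, and that of all genes tested was 0.30 and 0.28. Between the resistant lines, only CCND2 was called, lower in LIM1215-R2, and no gene was called higher, where 3.77% of all genes were lower and 3.39% higher. No gene of the 10 was a DEG between the resistant lines in edgeR or DESeq2, where 0.764% of all genes were DEGs in edgeR. An unadjusted p under 0.05 in edgeR was reached by 2 of the 10, and by 4700 of the 19102 genes tested.

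**Figure D1:**
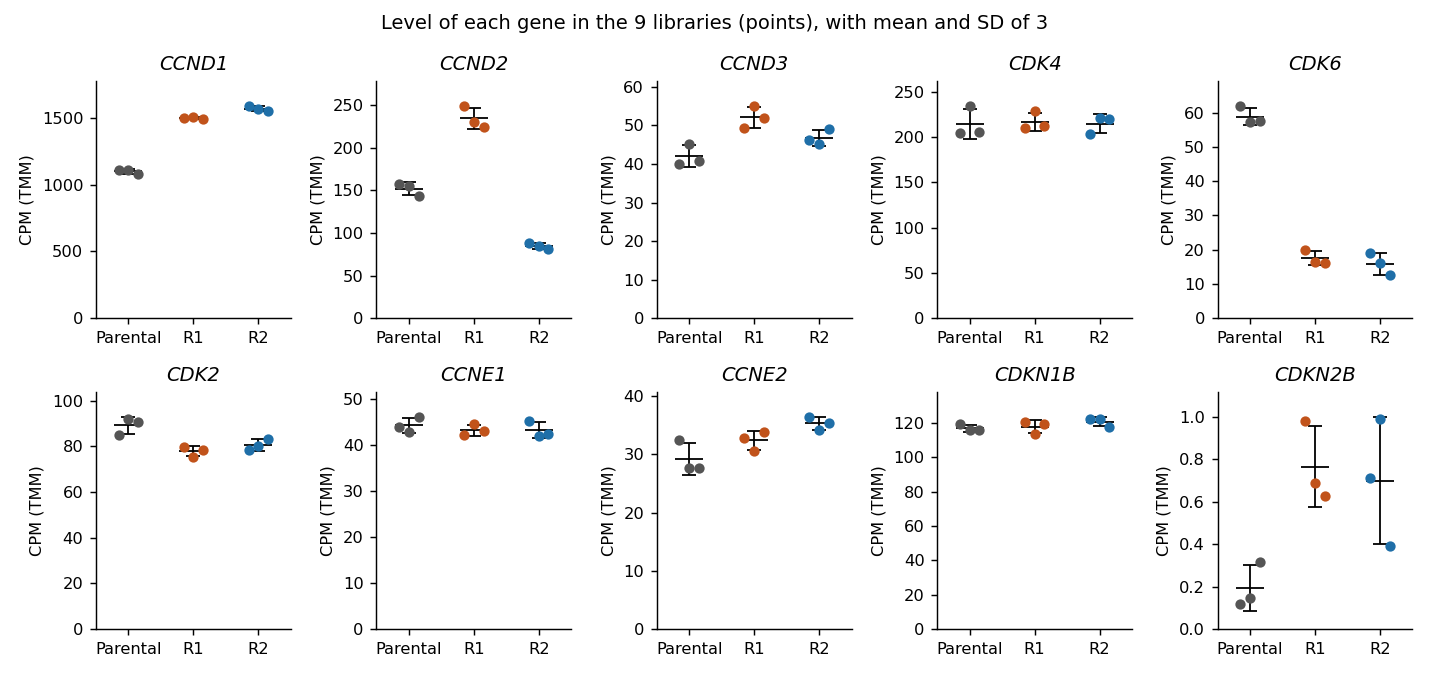
Level of the 10 genes in each library, in CPM on an axis that starts at 0. Points are the 3 libraries of LIM1215-parental, LIM1215-R1 (R1) and LIM1215-R2 (R2), and black lines show their mean and SD. CDK6 fell from a mean of 58.9 CPM in parental cells to at most 19.998 CPM in every library of the resistant lines, and CCND2 lay above parental cells in R1 and below them in R2.

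CCND1 encodes cyclin D1 and was by far the most abundant of these transcripts. It stood at 1112, 1110.4 and 1078 CPM in the LIM1215-parental libraries, at 1497, 1503 and 1493 CPM in LIM1215-R1, and at 1583, 1566 and 1547 CPM in LIM1215-R2. All 6 libraries of the resistant lines were above all 3 parental libraries. CCND1 was 1.36-fold higher in LIM1215-R1 (log2 fold change 0.44, SE 0.033, adjusted p 1.16e-11) and 1.42-fold higher in LIM1215-R2 (0.51, SE 0.033, adjusted p 6.83e-13). Between the resistant lines CCND1 differed by 0.06 (95% interval -0.0028 to 0.13, adjusted p 0.226). The calls of CCND1 against parental cells remained when any of the 9 libraries was left out.

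CCND2, which encodes cyclin D2, was the only one of the 10 genes called in opposite directions in the resistant lines. It measured 157, 155 and 143 CPM in LIM1215-parental, 248, 230.3 and 224 CPM in LIM1215-R1, and 87.7, 85.2 and 81.0 CPM in LIM1215-R2, so that the 3 lines did not overlap. The gene was 1.54-fold higher in LIM1215-R1 than in parental cells (log2 fold change 0.63, SE 0.052, adjusted p 1.34e-10) and 1.79-fold lower in LIM1215-R2 (-0.84, SE 0.055, adjusted p 8.28e-13). Tested directly, CCND2 was 2.77-fold lower in LIM1215-R2 than in LIM1215-R1 (-1.47, SE 0.054, 95% interval -1.58 to -1.36, adjusted p 1.01e-16). That value lies just short of the threshold for a DEG, and CCND2 became one when replicate 3 of LIM1215-R1 was left out. The counting was strand-specific, and in the GENCODE annotation 12.5% of the exon bases of CCND2 are shared with another gene of the same strand. The antisense transcript CCND2-AS1 had 0 to 5 counts per library.

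CCND3, the gene of cyclin D3, was the least abundant D-type cyclin. It stood at 40.0, 45.3 and 40.7 CPM in LIM1215-parental, at 49.3, 54.9 and 52.0 CPM in LIM1215-R1, and at 46.2, 45.2 and 49.1 CPM in LIM1215-R2. CCND3 was 1.24-fold higher in LIM1215-R1, without overlap with parental cells (log2 fold change 0.31, SE 0.068, adjusted p 0.000488). In LIM1215-R2 it did not pass the test (0.16, 95% interval 0.020 to 0.30, adjusted p 0.0761) and 1 library overlapped with parental cells. The difference between the resistant lines did not pass either (-0.15, 95% interval -0.29 to -0.017, adjusted p 0.146).

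To set paralogs against each other, levels were divided by gene length (RPKM, the CPM divided by the kilobases in the union of exons). The summed D-type cyclin level was 257 ± 5.18 RPKM in LIM1215-parental (SD, n = 3 in each line), against 353 ± 1.94 in LIM1215-R1 and 348 ± 3.96 for LIM1215-R2. Both resistant lines were above parental cells in every library, with an exact permutation p of 0.1, two-sided, the smallest that 3 libraries against 3 can give. The sum of LIM1215-R2 was 0.985 times that of LIM1215-R1 (exact permutation p 0.2), beside the 2.77-fold lower CCND2. In CPM, where CCND2 weighs more, the ratio was 0.951, with 1697 ± 19.9 against 1784 ± 13.2 CPM and every LIM1215-R2 library below every LIM1215-R1 library (exact permutation p 0.1, the smallest possible).

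CCND1 made up most of this sum in every line. Its share was 89.8% ± 0.282 in LIM1215-parental, against 89.1% ± 0.312 in LIM1215-R1 and 94.6% ± 0.0541 for LIM1215-R2. The share of CCND2 was 7.38% ± 0.235, 8.31% ± 0.414 and 3.05% ± 0.0873 in the same order, and the 3 lines did not overlap. CCND3 contributed 2.83% ± 0.177, 2.56% ± 0.138 and 2.34% ± 0.121. The exact permutation p was 0.1, its smallest value, for CCND1 and CCND2 in each comparison. The balance of CCND1 to CCND2 per kilobase was 12.2 ± 0.426 in parental cells, against 10.7 ± 0.558 in LIM1215-R1 and 31.1 ± 0.892 for LIM1215-R2. The CCND3 share depends on the length used and was 5.86%, 5.31% and 4.87% with the length of the longest transcript.

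**Figure D2:**
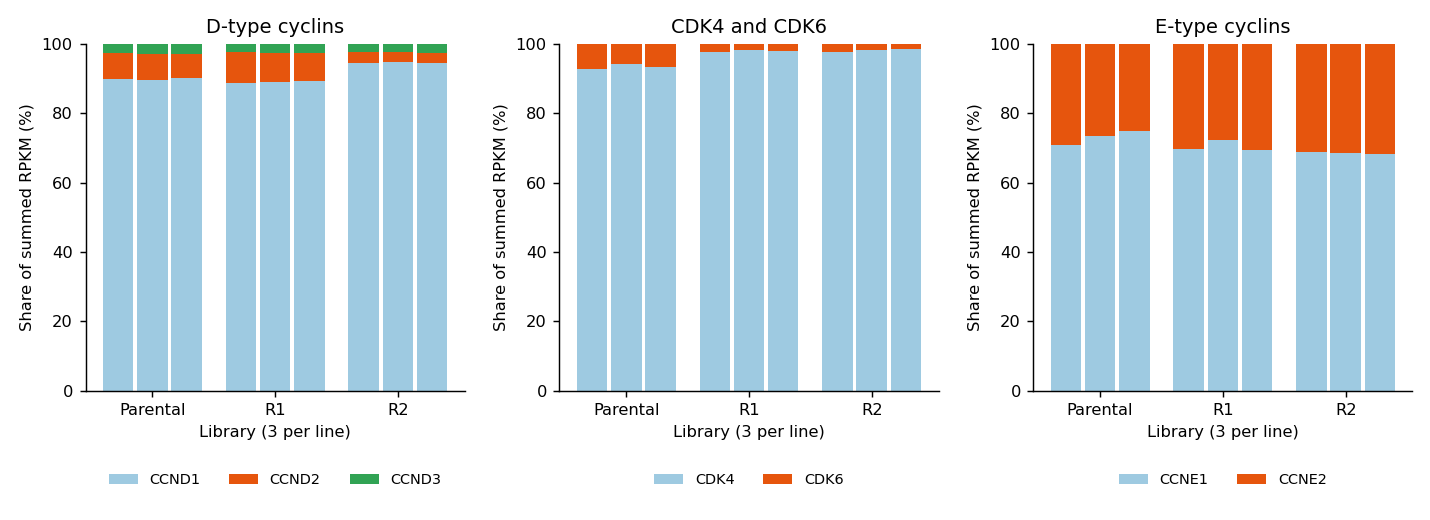
Share of each paralog in the summed RPKM of the D-type cyclins, of CDK4 and CDK6, and of the E-type cyclins, in percent, with 1 stacked bar per library. The CCND2 part is smallest in the R2 libraries at 2.95% to 3.12%, and the CDK6 part shrinks from 5.83% to 7.09% in parental libraries to at most 2.34% in the resistant lines.

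CDK6 showed the largest fall of the 10 genes. Its kinase is a partner of the D-type cyclins, as is CDK4. CDK6 measured 61.8, 57.3 and 57.6 CPM in LIM1215-parental, 19.998, 16.5 and 16.3 CPM in LIM1215-R1, and 19.1, 16.1 and 12.6 CPM in LIM1215-R2, and no resistant library came near a parental one. It was 3.35-fold lower in LIM1215-R1 (log2 fold change -1.74, SE 0.098, adjusted p 3.96e-14) and 3.68-fold lower in LIM1215-R2 (-1.88, SE 0.099, adjusted p 1.02e-14). Between the resistant lines CDK6 differed by -0.14 (95% interval -0.37 to 0.092, adjusted p 0.499). CDK6 remained a DEG in both lines with any library left out.

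CDK4 was not called in any comparison. It stood at 205, 234 and 206 CPM in LIM1215-parental, at 211, 228 and 212 CPM in LIM1215-R1, and at 203, 221 and 220.1 CPM in LIM1215-R2, and the 3 lines overlapped. The log2 fold change was 0.02 in LIM1215-R1 (95% interval -0.093 to 0.13, adjusted p 0.856) and 0.00 in LIM1215-R2 (95% interval -0.11 to 0.11, adjusted p 0.988), and its sign changed with the scaling. Both intervals are narrow beside the fall of CDK6.

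CDK4 took a larger part of the transcripts of both kinases in the resistant lines. Its share in the summed RPKM of CDK4 and CDK6 was 93.5% ± 0.632 in LIM1215-parental, against 98.0% ± 0.292 in LIM1215-R1 and 98.1% ± 0.448 for LIM1215-R2, without overlap between parental and resistant libraries (exact permutation p 0.1 in each line, the smallest possible). CDK4 exceeded CDK6 14.5-fold per kilobase in parental cells, 49.3-fold in LIM1215-R1 and 55.2-fold in LIM1215-R2. Because CDK6 was the minor partner, the sum of both was 74.2 ± 5.21, 71.6 ± 3.12 and 70.7 ± 3.07 RPKM, and the lines overlapped (exact permutation p 0.5 and 0.6 against parental cells). In CPM, where the long CDK6 transcript weighs more, the sum was 274 ± 15.2, 235 ± 8.99 and 231 ± 7.75, with no overlap between parental and resistant libraries (exact permutation p 0.1).

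CDK2, the kinase of the E-type and A-type cyclins, measured 85.0, 91.8 and 90.6 CPM in LIM1215-parental, 79.8, 75.4 and 78.6 CPM in LIM1215-R1, and 78.4, 80.1 and 83.4 CPM in LIM1215-R2. All resistant libraries were below all parental ones, by small margins. CDK2 was 1.14-fold lower in LIM1215-R1 (log2 fold change -0.19, SE 0.055, adjusted p 0.00647) and did not pass in LIM1215-R2 (-0.14, SE 0.055, adjusted p 0.0444). The call in LIM1215-R1 was close to the threshold. It was lost when replicate 2 or 3 of LIM1215-parental, replicate 2 or 3 of LIM1215-R1, or replicate 2 of LIM1215-R2 was left out, with adjusted p of 0.0222, 0.0336, 0.0269, 0.0215 and 0.0112, and also without a filter on low counts (0.0149) and with the 6 libraries of the comparison alone (0.0161).

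CCNE1, the gene of cyclin E1, was not called in any comparison. It measured 43.96, 42.8 and 46.1 CPM in LIM1215-parental, 42.1, 44.5 and 43.0 CPM in LIM1215-R1, and 45.3, 41.9 and 42.5 CPM in LIM1215-R2. The log2 fold change was -0.04 in both lines, with 95% intervals of -0.17 to 0.095 in LIM1215-R1 and -0.17 to 0.096 in LIM1215-R2.

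CCNE2, the gene of cyclin E2, stood at 32.5, 27.6 and 27.6 CPM in LIM1215-parental, at 32.8, 30.6 and 33.8 CPM in LIM1215-R1, and at 36.4, 34.3 and 35.4 CPM in LIM1215-R2. It was 1.21-fold higher in LIM1215-R2 (log2 fold change 0.27, SE 0.077, adjusted p 0.0064), where no library overlapped with parental cells. In LIM1215-R1 it did not pass (0.15, 95% interval -0.011 to 0.31, adjusted p 0.146), but it did once trends on GC content and length were removed per library (0.25, adjusted p 0.0029). The call in LIM1215-R2 was lost when replicate 2 or 3 of LIM1215-parental or replicate 1, 2 or 3 of LIM1215-R2 was left out, with adjusted p of 0.0256, 0.0505, 0.0348, 0.0134 and 0.0198, and with scaling by total counts alone (0.0104).

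Of the summed E-type cyclin level per kilobase, CCNE1 took 73.0% ± 2.09 in LIM1215-parental, against 70.4% ± 1.53 in LIM1215-R1 and 68.6% ± 0.391 for LIM1215-R2. The share in LIM1215-R2 lay below that of every parental library (exact permutation p 0.1, the smallest possible), while LIM1215-R1 overlapped with parental cells (exact permutation p 0.2). The sum itself was 24.6 ± 0.857, 24.9 ± 0.3004 and 25.6 ± 0.953 RPKM, and the lines overlapped.

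CDKN1B, which encodes p27KIP1, was not called in any comparison. It measured 119, 116 and 116 CPM in LIM1215-parental, 121, 113 and 119 CPM in LIM1215-R1, and 122, 122 and 118 CPM in LIM1215-R2. The 95% interval of the log2 fold change was -0.091 to 0.11 in LIM1215-R1 and -0.056 to 0.15 in LIM1215-R2. These values describe RNA, and p27KIP1 is known to be controlled largely through the turnover of the protein.

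CDKN2B was near the limit of detection in all lines. LIM1215-parental libraries had 2, 2 and 6 counts, those of LIM1215-R1 16, 11 and 10, and those of LIM1215-R2 12, 16 and 6. In CPM this was 0.193 ± 0.107, 0.766 ± 0.190 and 0.699 ± 0.2998 (SD, n = 3), where 3 counts of a library come to 0.160 to 0.218 CPM. The libraries of LIM1215-R1 were all above those of parental cells, and 1 library of LIM1215-R2 came close to the highest parental one. CDKN2B was higher in LIM1215-R1 (log2 fold change 1.90, SE 0.52, adjusted p 0.00497) and just missed the threshold in LIM1215-R2 (1.78, SE 0.53, adjusted p 0.0105).

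With so few counts, the call of CDKN2B changed with the libraries and the tool. The call in LIM1215-R1 was lost without replicate 1 of LIM1215-parental (adjusted p 0.0291), replicate 2 of LIM1215-parental (0.0154) or replicate 1 of LIM1215-R1 (0.0283), and with DESeq2 (0.0159). DESeq2 with lfcShrink, which pulls uncertain changes towards 0, put the log2 fold change at 0.65 in LIM1215-R1 and at 0.59 in LIM1215-R2. Without replicate 3 of LIM1215-parental, which had 6 counts, they were 2.49 and 2.37 in edgeR. In LIM1215-R2, CDKN2B passed without replicate 3 of LIM1215-parental (0.00823) or replicate 3 of LIM1215-R2 (0.00495), without a filter on low counts (0.00548) and after removal of trends on GC content and length (0.00661). CDKN2B-AS1, a long non-coding RNA on the opposite strand of the same locus, had 0 counts in parental cells, 0, 0 and 1 in LIM1215-R1, and 5, 2 and 0 in LIM1215-R2.

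**Figure D3:**
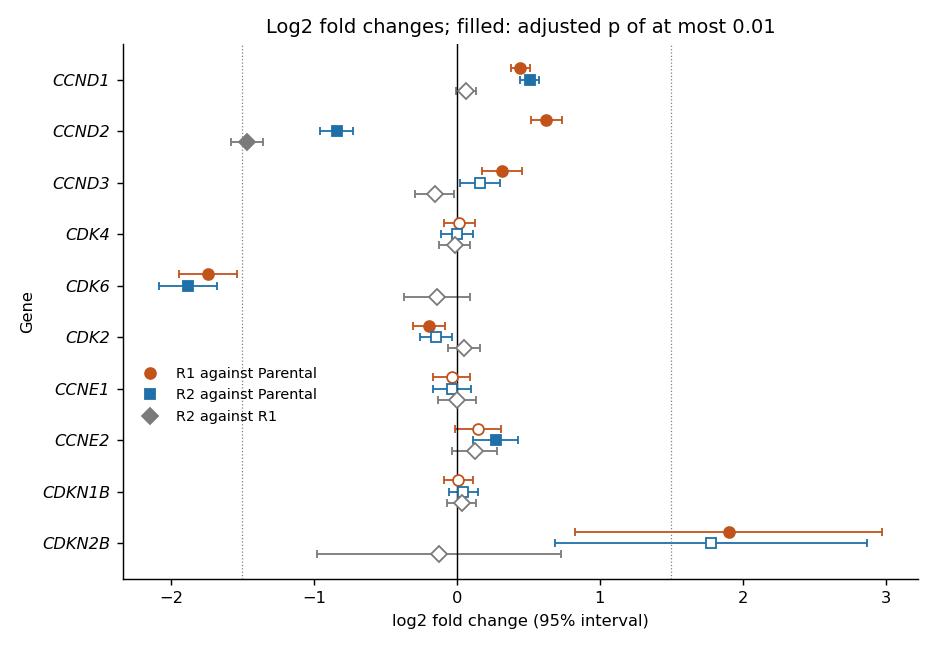
Log2 fold changes of the 10 genes with 95% intervals in LIM1215-R1 (R1) against parental cells, R2 against parental cells and R2 against R1. Filled markers have an adjusted p of at most 0.01, and dotted lines mark log2 fold changes of -1.5 and 1.5. CDK6 lies beyond -1.5 in both lines at -1.74 and -1.88, CCND2 changes sides from 0.63 to -0.84, and the intervals of CDKN2B are the widest.

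Tested against a log2 fold change of 0.5 in place of 0, CDK6 passed in LIM1215-R1 (edgeR glmTreat, adjusted p 6.77e-12) and in LIM1215-R2 (1.09e-12). CCND2 passed in LIM1215-R2 (2.47e-06) and between the resistant lines (7.72e-14), but not in LIM1215-R1 (0.0282). The other changes called against parental cells, those of CCND1, CCND3, CDK2, CCNE2 and CDKN2B, did not pass this test.

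Ranked per kilobase of the union of exons, the order in LIM1215-parental was CCND1 (231 ± 4.02 RPKM), CDK4 (69.4 ± 5.32), CDK2 (22.9 ± 0.940), CCND2 (19.0 ± 0.975), CCNE1 (17.99 ± 0.679), CDKN1B (12.6 ± 0.232), CCND3 (7.29 ± 0.502), CCNE2 (6.65 ± 0.636), CDK6 (4.81 ± 0.209) and CDKN2B (0.0481 ± 0.0268). Neighbours in this order overlapped only for CCND2 with CCNE1 and for CCND3 with CCNE2. In LIM1215-R1, CCND2 moved above CDK2 to 29.3 ± 1.57 RPKM, and in LIM1215-R2 it moved below CDKN1B to 10.6 ± 0.421 RPKM. The positions of CCND1, CDK4, CDK6 and CDKN2B were the same in all 3 lines. The lengths come from GENCODE and not from the annotation behind the counts. For CDKN1B, the union of exons is 9255 bases, longer than the 5002 bases that the gene spans in RefSeq, so its RPKM may be too low. With the longest transcript as the length, these 4 positions were also the same in all 3 lines, while CDKN1B rose from 12.6 to 26.95 RPKM and CCND3 from 7.29 to 17.5 RPKM in parental cells. CCND2, at 22.2 RPKM, then lay below CDKN1B in parental cells already, so its move below CDKN1B in LIM1215-R2 depends on the length used.

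The rest of the G1/S pathway was followed in 47 other genes, 45 of which were tested. In LIM1215-R1, 13 of the 45 rose above and 6 fell below parental cells, where 14.0% of all genes tested were higher and 13.4% lower. In LIM1215-R2, 13 rose and 1 fell, where 12.3% of all genes were higher and 11.6% lower. Their median log2 fold change was 0.06 and 0.02, against -0.01 in LIM1215-R1 and -0.0037 in LIM1215-R2 for all genes tested. The DEGs among them were the CDK inhibitors CDKN1A and CDKN2A in LIM1215-R1 and CDKN2A in LIM1215-R2, of which CDKN2A stayed below a log2 fold change of 1.5 in both lines in DESeq2 with lfcShrink.

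CDKN1A (p21CIP1), the relative of CDKN1B and a target of p53, showed the largest change in CPM among the CDK inhibitors. It stood at 108, 119 and 107 CPM in LIM1215-parental, at 373, 421 and 368 CPM in LIM1215-R1, and at 209.7, 220.3 and 216 CPM in LIM1215-R2, with no overlap between the lines. CDKN1A was 3.48-fold higher in LIM1215-R1 (log2 fold change 1.80, SE 0.054, adjusted p 7.05e-20) and 1.94-fold higher in LIM1215-R2 (0.95, SE 0.054, adjusted p 5.66e-14). Between the resistant lines it was lower in LIM1215-R2 (-0.85, SE 0.052, adjusted p 3.93e-12). Together, CDKN1A and CDKN1B summed to 228 ± 6.23 CPM in parental cells, 505 ± 25.2 in LIM1215-R1 and 336 ± 5.60 in LIM1215-R2.

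CDKN2A, the neighbour of CDKN2B that encodes p16INK4A and p14ARF, was as scarce as CDKN2B. It had 3, 0 and 1 counts in LIM1215-parental, 20, 22 and 26 in LIM1215-R1, and 10, 11 and 11 in LIM1215-R2. The gene was higher in LIM1215-R1 (log2 fold change 4.01, SE 0.53, adjusted p 7.19e-07) and in LIM1215-R2 (2.93, SE 0.61, adjusted p 0.000391). With so few parental counts, the size of these changes is uncertain. They were 5.22 and 4.14 without replicate 1 of LIM1215-parental, 3.58 and 2.497 without replicate 2 of that line, and 1.40 and 0.78 in DESeq2 with lfcShrink, and the adjusted p was at most 0.00421 with any library left out. Of the other INK4 genes, CDKN2C (p18INK4C) had log2 fold changes of -0.20 and -0.39 (adjusted p 0.222 and 0.014) and CDKN2D (p19INK4D) of 0.31 and -0.11 (0.122 and 0.67), none of which passed. CDKN1C (p57KIP2) had 2, 1 and 0 counts in the 3 libraries of each line together and was not tested. MTAP, which lies beside CDKN2A and CDKN2B on chromosome 9, was higher in both lines (0.24, adjusted p 0.00219, and 0.44, adjusted p 1.07e-06), although the call in LIM1215-R1 was lost without replicate 1 of that line (0.0156).

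Among the pocket proteins, which hold E2F factors, RBL2 (p130) was lower in LIM1215-R1 (log2 fold change -0.49, SE 0.059, adjusted p 1.62e-07) and did not pass in LIM1215-R2 (-0.19, adjusted p 0.0113). RB1 measured 112 ± 5.55, 102 ± 7.52 and 121 ± 8.73 CPM in parental, LIM1215-R1 and LIM1215-R2 cells and was not called against parental cells (adjusted p 0.109 and 0.158). When the resistant lines were compared, RB1 (0.24, adjusted p 0.00722) and RBL2 (0.30, adjusted p 0.00107) were higher in LIM1215-R2. RBL1 (p107) was not called in any comparison. The call of RB1 was lost without replicate 3 of LIM1215-parental (adjusted p 0.0103), replicate 2 or 3 of LIM1215-R1 (0.0491 and 0.0282) or replicate 1 or 2 of LIM1215-R2 (0.0558 and 0.0815), with at least 10 counts required in every library (0.0136) and after removal of GC content and length trends (0.0168). That of RBL2 between the resistant lines was lost without replicate 3 of LIM1215-R1 (0.0138) or replicate 2 of LIM1215-R2 (0.0174).

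Of the 10 E2F and DP genes, 1 was higher and 2 were lower in LIM1215-R1, and 1 was higher and 1 lower in LIM1215-R2, which is near the shares of all genes tested (14.0% and 13.4%, and 12.3% and 11.6%). E2F5, one of the repressive E2F factors, was higher in both lines (log2 fold change 0.32 and 0.31, adjusted p 0.00113 and 0.00174), and TFDP2, a dimerization partner, was lower in both (-0.39 and -0.41, adjusted p 1.42e-05 and 7.62e-06). E2F2, one of the activators, was lower in LIM1215-R1 (-0.30, adjusted p 0.0019). The call of E2F5 in LIM1215-R2 was lost without replicate 2 of LIM1215-parental (0.0148) or replicate 1 of LIM1215-R2 (0.0135), and that of E2F2 without replicate 2 of LIM1215-parental (0.013) or replicate 1 of LIM1215-R1 (0.0194). The activators E2F1 and E2F3, and E2F4, E2F6, E2F7 and E2F8, were not called in either line.

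FOXO1, a transcription factor that activates CDKN1B, was higher in LIM1215-R1 (log2 fold change 0.51, adjusted p 1.29e-05) and in LIM1215-R2 (0.37, adjusted p 0.000844), beside a CDKN1B level that was not called. In LIM1215-R2, the call of FOXO1 was lost without replicate 1 of LIM1215-parental (0.0114). FOXO3 and FOXO4, relatives of FOXO1 singled out after their values were seen, did not rise. FOXO3 was lower in LIM1215-R1 (-0.27, adjusted p 0.00363) and did not pass in LIM1215-R2 (-0.22, adjusted p 0.0148), and the call in LIM1215-R1 was lost without replicate 2 or 3 of LIM1215-parental (0.0169 and 0.0202) or replicate 3 of LIM1215-R1 (0.0296). FOXO4 was not called in either line (-0.15 and -0.16). MYC, singled out because its binding sequence occurs 3 times in the CDK4 window printed above, measured 283 CPM in parental cells, 292 in LIM1215-R1 and 286 in LIM1215-R2 and was not called in any comparison. CDC25B, a phosphatase that removes inhibitory phosphates from CDKs and was singled out after its values were seen, was higher in both lines (0.49 and 0.48, adjusted p 2.7e-09 and 4.15e-09).

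**Figure D4:**
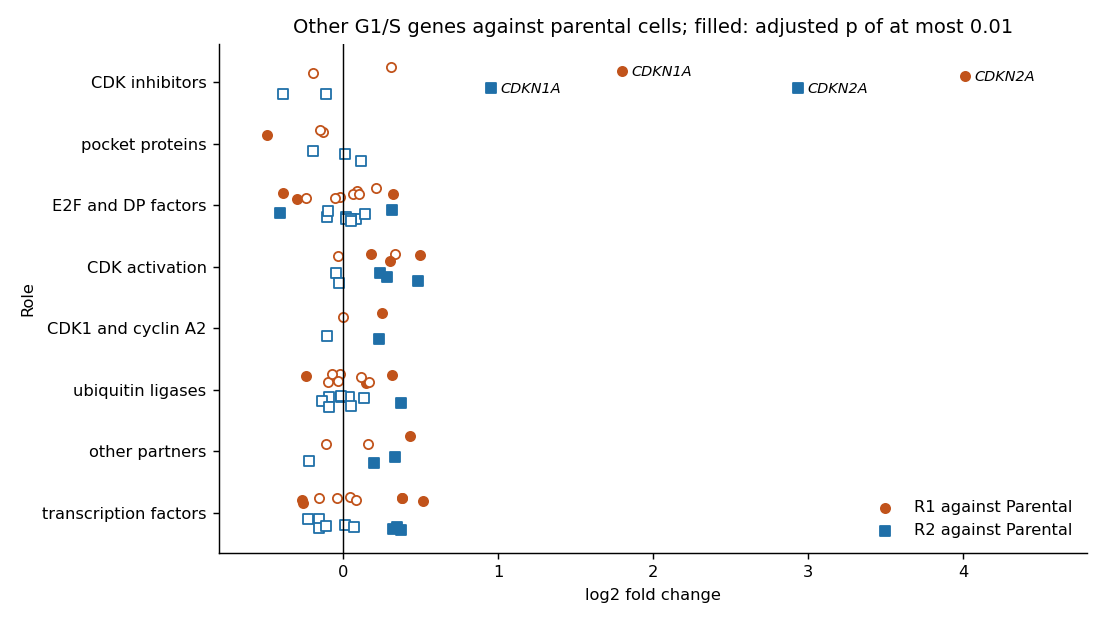
Log2 fold changes against parental cells of the 45 other G1/S genes tested, grouped by role, in LIM1215-R1 (R1, circles) and LIM1215-R2 (R2, squares). Filled markers have an adjusted p of at most 0.01, and genes with such a p and an absolute log2 fold change over 0.6 are named. CDKN1A and CDKN2A lie apart from the others at 0.95 to 4.01.

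A list of 20 E2F target genes, a part of the transcripts that RB1 and E2F factors control, moved little and in both directions. Of these 20 genes, 2 rose and 5 fell in LIM1215-R1, and 3 rose and 4 fell in LIM1215-R2, beside 14.0% and 13.4%, and 12.3% and 11.6%, of all genes tested. Their median log2 fold change was -0.04 and -0.06. The highest in both lines was RRM2, a subunit of ribonucleotide reductase (0.44 in each, adjusted p 6.72e-10 and 7.18e-10), and the lowest was UNG, a uracil-DNA glycosylase (-0.48 and -0.35, adjusted p 3.59e-08 and 6.89e-06). CDC6, which loads the replicative helicase, was the other gene higher in both (0.28 and 0.37), and POLA1, a subunit of DNA polymerase alpha, was higher in LIM1215-R2 (0.27). The lower genes besides UNG were helicase subunits, MCM3, MCM4, MCM5 and MCM6 in LIM1215-R1 and MCM3, MCM4 and MCM5 in LIM1215-R2. In LIM1215-R2, the call of POLA1 was lost without replicate 2 of LIM1215-parental (0.011) or replicate 2 of LIM1215-R2 (0.0203). There, the calls of MCM3 and MCM4 were lost when any library but replicates 1 and 2 of LIM1215-R1 was left out, with adjusted p of 0.0119 to 0.0284 and 0.0155 to 0.0398. Between both resistant lines, the lowest adjusted p among the 20 was 0.0178 (POLA1).

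The libraries matched their label as epithelial cells. Of 12 epithelial markers, 11 exceeded 10 CPM in every line and KRT20 was at 0, and their summed level was 13490 to 13860 CPM in LIM1215-parental, 16887 to 17198 in LIM1215-R1 and 15432 to 15843 in LIM1215-R2. Of 12 markers of blood, stromal and endothelial cells, none exceeded 10 CPM, and their summed level was 2.73 to 3.30 CPM, 1.88 to 2.15 CPM and 1.13 to 1.67 CPM. The epithelial sum was mostly KRT8 and KRT18, which were higher in both resistant lines, as were KRT19 and VIL1. EPCAM, CDX1, CDX2, CDH17 and LGALS4 were lower in both (on the log2 scale -0.26, -0.85, -0.44, -0.53 and -0.23 for LIM1215-R1, and -0.32, -0.65, -0.54, -0.58 and -0.37 in LIM1215-R2, the highest adjusted p being 0.000276). GPA33 was higher in LIM1215-R2 (0.46) and did not pass in LIM1215-R1 (0.16, adjusted p 0.0118), and CDH1 was not called (-0.14 and -0.12). The part of these differences in the changes given above was not tested.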

How the data were processed

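Poly(A) RNA of 9 libraries, 3 per line, was sequenced from both ends after stranded library preparation. The authors mapped reads to hg38 using STAR. Reads on the reverse strand were counted for each gene with HTSeq 0.9.1, and the deposited files hold these raw counts by gene symbol, not normalized. The gene annotation is not given in the sources used here.

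Libraries were grouped by the line in their titles. The 10 genes and the gene lists were chosen with earlier results of these data known. Other genes were named if they belonged to a list and passed an adjusted p of 0.01 with an absolute log2 fold change of 0.5, were CDK inhibitors, pocket proteins or E2F genes of it, or were antisense or neighbouring transcripts of the 10 genes (MTAP), and genes singled out otherwise are marked. Of the E2F targets, the genes called are named after their values were seen. The tools were edgeR 4.0.16 with limma 3.58.1 under R 4.3.3. A gene was tested if its counts summed to 10 or more (19102 of the 28824 with a count). Line was the only factor of edgeR's quasi-likelihood fit, which used every library and TMM scaling, and p-values were adjusted over all genes tested (Benjamini-Hochberg). SEs were derived from the F statistic. TMM factors lay between 0.984 and 1.02 and scale the CPM values as well. Gene length was the union of exons in GENCODE, and positions and promoters came from RefSeq. Shares and sums were compared with exact permutation tests (scipy 1.17.1). Libraries had 13737416 to 18725014 counts, so that 3 counts are 0.160 to 0.218 CPM, which covers counting error only. The alternatives were other filters, scalings, tests (DESeq2 1.42.0 with and without lfcShrink, glmTreat), thresholds and lengths, fits to the libraries of each comparison, GC content and length trends removed (known for 86.3% of the genes tested), the replicate number as a block, and each library left out. Their use on genes other than the 10 was chosen after the data were seen. The script was tested on simulated data. CDK3, with 0 counts in every library, and CDKN1C were not tested.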

Additional observations from a re-analysis of the deposited data

Results flagged for a closer look

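CCND2 and 3 other genes of the G1/S lists differed between the resistant lines in the direct edgeR test of LIM1215-R2 against LIM1215-R1, which is the test of the difference between the changes of both lines from the shared parental libraries. These were 1 of the 10 genes and 3 of the 45 other G1/S genes tested, and none of the 20 E2F targets was called. Of all genes tested, 3.39% were higher and 3.77% lower in LIM1215-R2, so these counts are near the shares of all genes. CCND2 was lower in LIM1215-R2 by a log2 fold change of -1.47 (adjusted p 1.01e-16), with 224 to 248 CPM in LIM1215-R1 and 81.0 to 87.7 CPM in LIM1215-R2. CDKN1A was lower in LIM1215-R2 by -0.85 (adjusted p 3.93e-12), and was higher than in parental cells in both lines. RB1 was higher in LIM1215-R2 by 0.24 (adjusted p 0.00722), and RBL2 by 0.30 (adjusted p 0.00107). With 3 libraries per line, no library was tested as an outlier.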

How the results depend on the processing

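CCND1, CCND2, CDK4, CCNE1, CDKN1B and CDK6 kept their calls or lack of a call against LIM1215-parental under every alternative but the test against a log2 fold change of 0.5, in which CCND1 in both lines and CCND2 in LIM1215-R1 did not pass. Over these alternatives, those with 1 library left out included, CCND2 lay between 0.58 and 0.69 in LIM1215-R1 and between -0.88 and -0.80 in LIM1215-R2, and CDK6 between -1.84 and -1.61 and between -2.03 and -1.74. Of 1612 values of single genes under alternatives, 1435 kept direction and side of the threshold, 135 no longer passed, 10 newly passed and 32 changed sign. The 32 passed under neither setting. Causes were not tested.

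The count of DEGs among the 10 genes went from 2 to 1 in LIM1215-R1 when 10 counts were required in every library (CDKN2B is then not tested), with DESeq2, with or without lfcShrink, and in the test against 0.5. In LIM1215-R2 it went from 1 to 2 without a filter, with GC content and length trends removed, with or without the replicate block, and at an adjusted p of 0.05. Between the resistant lines it went from 0 to 1 at a log2 fold change of 1. With 1 library left out, these counts lay between 1 and 2, 1 and 2, and 0 and 1. In the test against 0.5, the genes called among the 10 went from 6 to 1 and from 4 to 2, and those among the other G1/S genes from 19, 14 and 3 to 2, 2 and 1. With trends removed, the other G1/S genes called between the resistant lines were 5, and 7 with the replicate block added, when the 10 genes gave 2 calls (CCND1 and CCND2), and with 1 library left out they were between 1 and 3.

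With the longest transcript as the length, the CCND1 share was 86.7%, 86.3% and 92.1% in LIM1215-parental, LIM1215-R1 and LIM1215-R2, the CCND3 share 5.86%, 5.31% and 4.87%, the CDK4 share 95.8%, 98.7% and 98.8%, and the CCNE1 share in LIM1215-R2 67.6%. With no length, the CCND1 share was 85.0%, 83.95% and 92.3%, the CCND2 share 11.7%, 13.1% and 4.98%, the CCND3 share 3.24%, 2.92% and 2.76%, the CCNE1 share 60.3%, 57.1% and 55.0%, and the CDK4 share 78.4%, 92.5% and 93.1%.

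The signs that changed were those of log2 fold changes near 0. CCNE1 between the resistant lines was -0.0035 without a filter, -0.0090 with 10 counts in every library, -0.0045 with DESeq2 size factors and in DESeq2, -0.0044 with lfcShrink and -0.0039 with the libraries of the comparison alone. CDK4 in LIM1215-R1 was -0.018 with total counts and -0.020 with trends removed, with or without the block. In LIM1215-R2 it was -7.6e-05 with 10 counts in every library and -0.014 with total counts, and between the lines 0.0031 with total counts, 0.0457 with trends removed and 0.0455 with the block added. CDKN1B was -0.023 with total counts in LIM1215-R1, and between the resistant lines -0.040 with trends removed, with or without the block. With 1 library left out, the values ran from -0.034 to 0.022 for CCNE1 between the resistant lines, from -0.021 to 0.081, -0.030 to 0.066 and -0.037 to 0.024 for CDK4 in LIM1215-R1, in LIM1215-R2 and between them, from -0.0055 to 0.039 for CDKN1B in LIM1215-R1, and from -0.45 to 0.15 for CDKN2B between the lines.

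Of 9 same-number pairs of libraries, 4 had a correlation of deviations over 0.1 (range -0.15 to 0.44), and 5 of 9 libraries correlated best with their own number. Pairs of libraries with different numbers ranged from -0.43 to 0.31. These values do not settle whether the replicate numbers pair the libraries, since same-number pairs were not tested against the others. With the replicate block, 6, 4 and 1 of the 10 genes were called, as without it, and CDK6 was -1.75 and -1.89.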

Other observations

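Genes near CCND2 and CDK6 were read as values, with the 3 nearest tested genes of at least 1 CPM on each side, a choice made after the data were seen, and a selection of them is given. TIGAR, 15.9 kb from CCND2, was lower in both lines (log2 fold change -0.22 in LIM1215-R1, adjusted p 0.00608, and -0.41 in LIM1215-R2, adjusted p 9.15e-06). PARP11, 400.0 kb away on the other side, was higher in both (1.66, adjusted p 1.28e-07, and 0.81, adjusted p 0.00443) and lower in LIM1215-R2 than in LIM1215-R1 (-0.85, adjusted p 0.00174), as was TSPAN9 at 987 kb (1.47 and 0.83 against parental cells, -0.64 between the resistant lines, adjusted p 5.28e-10, 2.37e-05 and 0.000472). Beside CDK6, FAM133B at 14.5 kb was not called (-0.11 and -0.01, adjusted p 0.503 and 0.981), while SAMD9, a gene induced by interferon, at 263 kb on the other side was higher in both lines (2.93 and 2.82, adjusted p 2.84e-09 and 7.08e-09).

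The genes whose log2 CPM followed that of a member most closely over the 9 libraries, out of 12562 ranked genes, are given as a description, since the 3 lines set most of each correlation. For CCND1 they were BICD2, CEMIP and ITPR1 (Pearson's r 0.999, 0.999 and 0.999), and CEMIP, a hyaluronan-binding protein, had means of 282, 820.1 and 973 CPM in LIM1215-parental, LIM1215-R1 and LIM1215-R2. For CCND2 they were CCL20, PLEKHS1 and TMCC3 (0.992, 0.988 and 0.988), and CCL20, a chemokine, had means of 7.50, 11.4 and 3.51 CPM. For CDK6 they were HACD3, FAM83B and PADI2 (0.996, 0.994 and 0.994), and PADI2, a peptidylarginine deiminase, had means of 14.9, 0.373 and 0.344 CPM. For CDKN2B, at few counts, they were LOC124906273, HS6ST2 and DENND5A (0.969, 0.967 and 0.962).

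CDK7, the kinase that activates other CDKs, had 2 to 7 counts per library, while its partners CCNH and MNAT1 had means of 31.4 and 16.4 CPM in LIM1215-parental. CDK3 had 0 counts in all 9 libraries, and in GENCODE 91.4% of its exon bases are shared with the readthrough gene TEN1-CDK3 on the same strand. For CDK7 that share is 0.0%. The annotation behind the counts is not given in the sources used here, so whether the low counts of CDK7 and CDK3 reflect absent expression cannot be told.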
